A study of Mus musculus with 10 samples.

Results

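Hmox1, Nqo1, Gclc, Gclm, Txnrd1, Srxn1 and Slc7a11 are target genes of the transcription factor NRF2, and Mt1 and Mt2 are the metallothioneins that most tissues express. These 9 genes were found by their symbols among the 21956 genes listed in the deposited table, and all 9 were among the 13404 genes that passed the filter on low counts. Poly(A) RNA of gastrocnemius, a calf muscle, from WT mice was sequenced as paired-end libraries, 5 with the treatment HLI and 5 with the treatment Sham. The labels leave HLI unexplained (hindlimb ischaemia is the reading used here) and give no age, time or further allele. Setting HLI against Sham asks how the treatment bears on the muscle's transcripts. Whether replicates are separate animals is not stated, so each p-value measures the spread between these libraries only, and that spread may be technical.

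Estimated counts summed to between 16788953 and 18525905 per library in HLI and between 16556385 and 22136299 in Sham. The muscle label was checked against 8 fast fibre genes, Myh4, Acta1 and Ckm among them, whose summed level was 48301 to 126200 CPM (counts per 1000000 counts of the library) in HLI and 109080 to 145010 CPM in Sham. The liver and kidney genes Alb, Apoa1 and Umod together reached 0.75 CPM in HLI and 0.969 CPM in Sham at most. The libraries labelled HLI-1 and Sham-3 stood apart from the other 8 in several of the genes described here, and results that rest on them are given with and without them.

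NRF2, encoded by Nfe2l2, is held low by KEAP1, which directs it to degradation, and is freed when electrophiles or oxidants modify KEAP1. It then binds antioxidant response elements (ARE) with a small MAF partner, a site for which BACH1 competes as a repressor that haem releases. Metallothioneins are small cysteine-rich proteins that bind zinc and copper; their genes answer to metals through the factor MTF1 at metal response elements (MRE), and also to glucocorticoids and inflammatory cytokines.

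The windows upstream of the members with an ARE core, and of both metallothionein genes, are shown because the results below turn on which genes varied together. RefSeq promoters of the build GRCm38.p6 were at hand for 7 of the 9 members, in 9 windows, 3 of them for Txnrd1; Hmox1 and Gclc had no entry. The 250 bases before each annotated start were searched on both strands for the ARE core TGACNNNGC and the MRE core TGCNCNC. In the first pair of windows, of Mt2 (chr8:94172368-94172617, plus strand) and Mt1 (chr8:94178839-94179088, plus strand), capitals mark the MRE core, in its reverse complement where it lies on the other strand. In the next pair, of Gclm (chr3:122245307-122245556, plus strand) and of the second start of Txnrd1 (chr10:82858956-82859205, plus strand), capitals mark the ARE core in its reverse complement.
Mt2: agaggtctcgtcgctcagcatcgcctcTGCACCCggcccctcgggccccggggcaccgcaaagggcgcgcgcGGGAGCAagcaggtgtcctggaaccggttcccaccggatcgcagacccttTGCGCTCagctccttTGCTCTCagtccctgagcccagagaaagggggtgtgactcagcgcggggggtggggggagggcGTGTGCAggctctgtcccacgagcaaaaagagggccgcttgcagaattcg
Mt1: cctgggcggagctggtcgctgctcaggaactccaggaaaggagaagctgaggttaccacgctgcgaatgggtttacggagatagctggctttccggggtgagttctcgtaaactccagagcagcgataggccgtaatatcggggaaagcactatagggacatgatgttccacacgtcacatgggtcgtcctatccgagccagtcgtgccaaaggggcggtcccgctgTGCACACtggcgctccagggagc
Gclm: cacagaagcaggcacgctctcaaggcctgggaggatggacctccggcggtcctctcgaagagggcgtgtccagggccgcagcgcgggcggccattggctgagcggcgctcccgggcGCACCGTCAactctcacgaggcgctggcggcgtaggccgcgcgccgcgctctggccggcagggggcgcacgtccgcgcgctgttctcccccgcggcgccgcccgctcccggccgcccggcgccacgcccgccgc
Txnrd1: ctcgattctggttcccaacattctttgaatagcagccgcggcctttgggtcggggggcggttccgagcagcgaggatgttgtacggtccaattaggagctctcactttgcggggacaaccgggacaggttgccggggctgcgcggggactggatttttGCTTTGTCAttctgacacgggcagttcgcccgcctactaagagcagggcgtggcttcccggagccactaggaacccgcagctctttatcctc

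The Mt2 window held 5 MRE cores by the pattern TGCNCNC, and 0.344% of all 32851 promoter windows of this length hold that number or more. In this pattern the first N takes any base. A stricter form with A or G there was not searched, and it would leave out TGCTCTC and, in reverse complement, GGGAGCA. The Mt1 window held 1 MRE core, 23 bases before the start, and 44.4% of all windows hold at least 1. This count covers only the window before the annotated start, and bases after that start were not searched. Mt2 also had 1 ARE core, 79 bases before its start, and an ARE core was present in 10.2% of all windows. The ARE core of Gclm lay 134 bases before the start and was overlapped by 1 of its 2 MRE cores, and that of Txnrd1 lay 92 bases before the second start. The windows of Srxn1, Slc7a11 and Nqo1 and the other windows of Txnrd1 held no ARE core, which says only that these letters are not in the windows searched. The starts of Mt2 and Mt1 lie 6471 bases apart on chromosome 8, and their transcripts share no run of 50 bases with each other on either strand, so reads of the neighbours can be told apart by sequence.

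No member differed between HLI and Sham beyond the spread between libraries at an adjusted p under 0.05 (edgeR quasi-likelihood test, Benjamini-Hochberg over 13404 genes), and neither did any other gene tested (0.0%). At an unadjusted p under 0.05, 1 of the 9 members, Nqo1, was lower in HLI and none was higher; of all tested genes 6.15% were lower, 10.7% were higher and 16.9% were either. That split depends on the scaling: it was 1438 higher and 824 lower genes in edgeR, 2271 and 267 by limma on unscaled TPM (transcripts per 1000000, relative to gene length), and 1102 and 1099 after scaling TPM by median of ratios. DESeq2 called 42 genes (0.313%), no member among them. The fitted fold change lay below 0 for 5 of the 9 members, against 46.2% of all tested genes. The HLI and Sham ranges overlapped for all 9 members, whereas 1.65% of all tested genes had ranges apart.

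The widest differences between libraries came from 1 library of each group. HLI-1 and Sham-3 held the 2 highest CPM of the 10 libraries for 7 of the 9 members, all but Nqo1 and Slc7a11, which is a description because the pair was noticed in these genes. Of all tested genes, 3.86% had the same 2 libraries on top. HLI-1 was the highest for Hmox1, Srxn1, Mt1 and Mt2, and Sham-3 for Gclc, Gclm and Txnrd1.

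**Figure D1:**
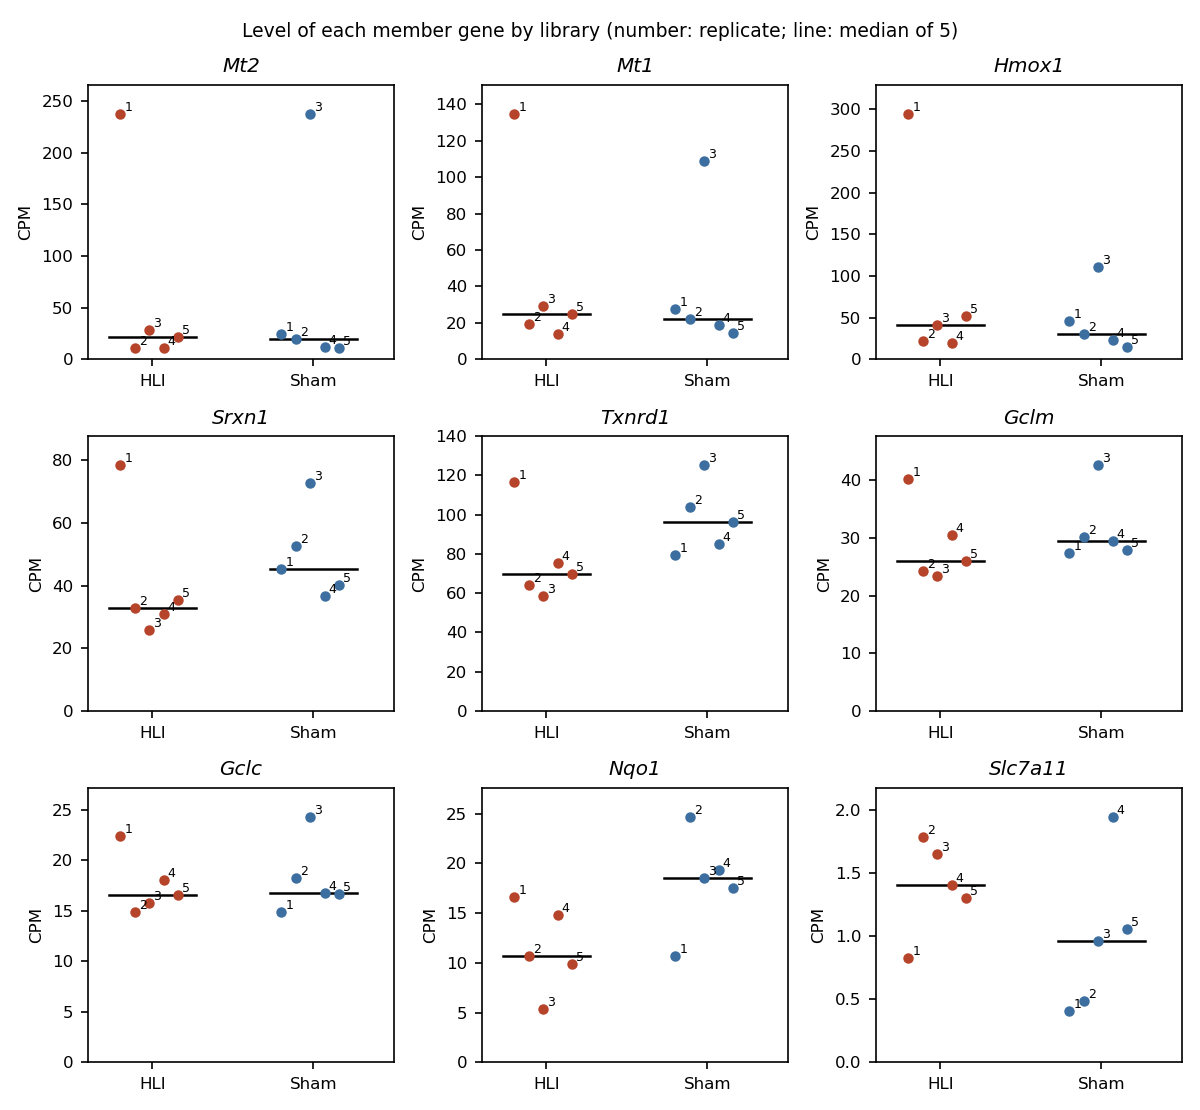
CPM (linear axis) of each member gene in the 5 HLI libraries and the 5 Sham libraries, 1 point per library with a line at the group median. HLI-1 and Sham-3 lie far above the rest for Mt2, Mt1 and Hmox1, at 237 and 237 CPM for Mt2, and the HLI and Sham ranges overlap for every gene.

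The metallothioneins and Hmox1 spread far more between libraries than the other members did. Mt2 (ENSMUSG00000031762) stood at 237, 10.97, 28.4, 11.4 and 22.01 CPM in HLI replicates 1 to 5, against 24.9, 20.2, 237, 12.0 and 10.8 CPM in Sham replicates 1 to 5. One library in each group was thus high and the other 4 were low, and the low libraries of the groups overlapped. HLI-1 was 14.2 times the median of the other 4 HLI libraries, and Sham-3 was 14.8 times the median of the other 4 Sham libraries. Fitted as HLI over Sham, the log2 fold change was 0.02 (SE 1.05; edgeR adjusted p = 0.99), with means of 62.0 ± 98.3 CPM in HLI and 61.0 ± 98.6 CPM in Sham (SD, n = 5 each). Its direction depended on which library was left out: it was -1.75 without HLI-1, 1.87 without Sham-3 and 0.08 without both.

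Mt1 (ENSMUSG00000031765), the neighbouring gene, stood at 135, 19.5, 29.4, 13.7 and 24.8 CPM in HLI replicates 1 to 5, against 27.9, 22.3, 109, 19.1 and 14.4 CPM in Sham replicates 1 to 5. The same 2 libraries were high, by 6.08 times the median of the other 4 in HLI and 5.26 times in Sham. The log2 fold change was 0.20 (SE 0.69; edgeR adjusted p = 0.88), with means of 44.4 ± 50.8 CPM in HLI and 38.5 ± 39.6 CPM in Sham (SD, n = 5 each). It was -0.82 without HLI-1, 1.09 without Sham-3 and 0.05 without both.

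Per length, the pair was also unequal in the 2 high libraries. The ratio of Mt2 to Mt1 in TPM was 1.903 in HLI-1 and 0.608 to 1.04 in HLI replicates 2 to 5, against 2.35 in Sham-3 and 0.679 to 0.989 in the remaining Sham libraries. Mt2 was therefore the more abundant transcript per length in those 2 and about level with Mt1, or below it, elsewhere. Together Mt1 and Mt2 reached 1406 TPM in HLI-1 and 78.0 to 255 TPM in the remaining HLI libraries, against 1181 TPM in Sham-3 and 75.1 to 182 TPM in the other Sham libraries. An antisense gene, Gm45774, holds 45.8% of the 50-base runs of Mt2 on the opposite strand in the GENCODE M21 annotation. Since the use of strand in counting is not given, reads from there cannot be told apart from those of Mt2.

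Mt3, a metallothionein best known from brain, was low but had the same 2 libraries on top, at 3.97 CPM in HLI-1 and 0.63 to 1.22 CPM in the remaining HLI libraries, against 1.39 CPM in Sham-3 and 0.46 to 0.99 CPM in the other Sham libraries. Slc39a14, a zinc and iron importer named here after its values were seen, showed that order too, at 52.3 CPM in HLI-1 and 40.6 CPM in Sham-3, with the other 8 libraries between 20.6 and 25.5 CPM. Mtf1, the metal sensor itself, did not: it was 15.4, 14.4, 18.0, 21.8 and 22.3 CPM in HLI replicates 1 to 5, against 17.3, 21.0, 24.5, 24.8 and 19.5 CPM in Sham replicates 1 to 5. Of the 10 tested genes of metal handling around metallothionein, none passed the test at an unadjusted p under 0.05 in either direction, where 16.9% of all tested genes did. The zinc exporters came nearest, Slc30a1 with a log2 value of 0.29 for HLI over Sham (SE 0.15; edgeR adjusted p = 0.32) and Slc30a2 with -0.50 (SE 0.27; edgeR adjusted p = 0.33).

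Hmox1 (ENSMUSG00000005413) encodes the inducible haem oxygenase, which breaks down haem to biliverdin, iron and carbon monoxide. It stood at 295, 22.6, 41.6, 19.6 and 51.9 CPM in HLI replicates 1 to 5, against 46.0, 30.2, 111, 23.7 and 14.9 CPM in Sham replicates 1 to 5. HLI-1 was 9.19 times the median of the other 4 HLI libraries and Sham-3 was 4.10 times that of the other 4 Sham libraries, and the other 8 overlapped. The log2 fold change was 0.93 (SE 0.76; edgeR adjusted p = 0.48), with means of 86.1 ± 117 CPM in HLI and 45.1 ± 38.3 CPM in Sham (SD, n = 5 each). It was -0.41 without HLI-1, 1.59 without Sham-3 and 0.22 without both, so the sign turned only when HLI-1 was left out and Sham-3 kept. DESeq2 gave no p for Hmox1, Mt1 and Mt2.

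The constitutive haem oxygenase Hmox2 kept to 39.0 to 55.5 CPM in HLI and 38.1 to 46.9 CPM in Sham. Bach1, the haem-sensitive repressor, stood at 49.4, 41.9, 49.2, 40.3 and 41.9 CPM in HLI replicates 1 to 5, against 39.7, 37.7, 53.4, 38.6 and 33.7 CPM in Sham replicates 1 to 5. HLI-1 and Sham-3 were the 2 highest for Bach1, by a narrow margin over HLI-3. Of the 12 tested genes of haem and iron handling, 1 had an unadjusted p under 0.05, where 16.9% of all tested genes did. It was Blvra, the biliverdin reductase that takes up the product of haem oxygenase, at 12.3 ± 2.60 CPM in HLI and 9.40 ± 0.95 CPM in Sham (SD, n = 5 each; log2 fold change 0.39, SE 0.16, edgeR adjusted p = 0.29). The ferritin chains had fitted log2 values of opposite sign, Ftl1, the light chain, at 0.60 (SE 0.29; edgeR adjusted p = 0.30) and Fth1, the heavy chain, at -0.40 (SE 0.19; edgeR adjusted p = 0.30), and neither passed the test.

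**Figure D2:**
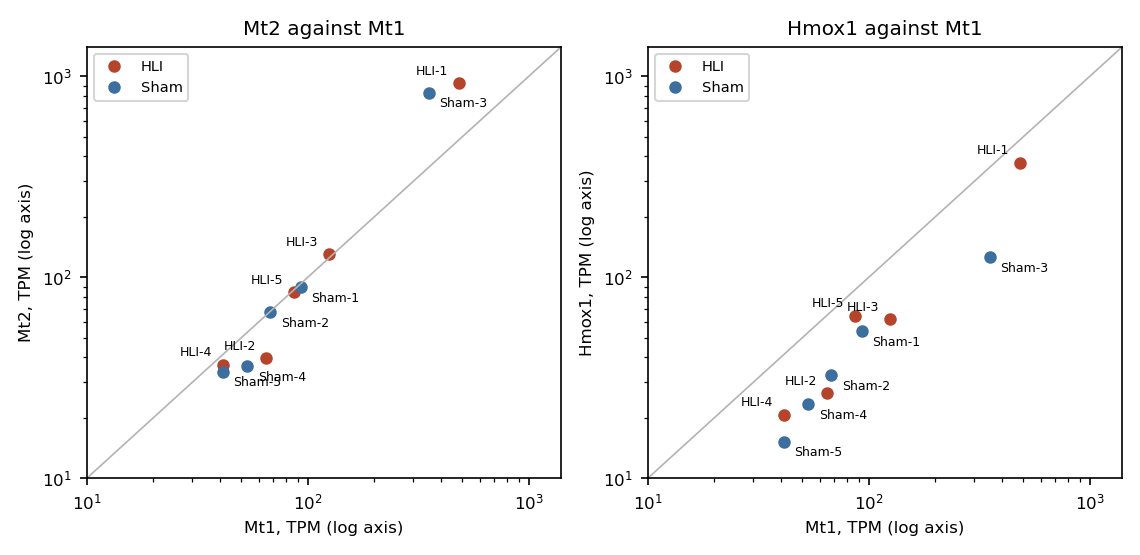
Mt2 and Hmox1 against Mt1 in each of the 10 libraries, in TPM on log axes. HLI-1 and Sham-3 lie apart at the upper right, at 484 and 352 TPM of Mt1. The other 8 libraries spread between 41.2 and 125 TPM of Mt1.

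Srxn1 (ENSMUSG00000032802) encodes sulfiredoxin, which restores over-oxidised peroxiredoxins. It stood at 78.4, 32.96, 25.7, 30.9 and 35.4 CPM in HLI replicates 1 to 5, against 45.3, 52.5, 72.6, 36.7 and 40.3 CPM in Sham replicates 1 to 5. In CPM, HLI-1 was above every Sham library while the other 4 HLI libraries were below every Sham library. In TPM that gap was not kept. There HLI replicates 2, 3 and 5, at 21.6, 21.4 and 24.5 TPM, were above Sham-4 at 20.2 TPM. The log2 fold change was -0.28 (SE 0.29, edgeR adjusted p = 0.58). Without both HLI-1 and Sham-3 it was -0.51 (edgeR unadjusted p = 0.0061, adjusted p = 0.22). Both were left out after they were seen to be high, which narrows the spread that this p rests on.

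Txnrd1 (ENSMUSG00000020250), the cytosolic thioredoxin reductase, had the same layout with a smaller spread. It stood at 117, 64.2, 58.6, 75.3 and 69.5 CPM in HLI replicates 1 to 5, against 79.3, 104, 125, 85.0 and 96.3 CPM in Sham replicates 1 to 5. Again HLI replicates 2 to 5 were below every Sham library in CPM, and HLI-1 lay among the Sham values. In TPM, HLI-3 and HLI-5, at 45.1 and 45.5 TPM, were above Sham-4 at 43.4 TPM. The log2 fold change was -0.35 (SE 0.19, edgeR adjusted p = 0.34), and -0.46 without both libraries (edgeR unadjusted p = 0.0059, adjusted p = 0.22). The same limit holds for the p without both libraries. The annotated span of Txnrd1 overlaps 3 other genes, Eid3 among them, but its transcripts share no run of 50 bases with another gene on either strand.

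Nqo1 (ENSMUSG00000003849) encodes a quinone reductase that is used widely as a readout of NRF2. It stood at 16.64, 10.7, 5.40, 14.8 and 9.89 CPM in HLI replicates 1 to 5, against 10.6, 24.7, 18.5, 19.3 and 17.5 CPM in Sham replicates 1 to 5. HLI-3 and HLI-5 were below every Sham library, and Sham-1 lay at the level of HLI-2. The means were 11.5 ± 4.41 CPM in HLI and 18.1 ± 5.01 CPM in Sham (SD, n = 5 each), and the log2 fold change of -0.66 (SE 0.28) did not pass after adjustment (edgeR unadjusted p = 0.039, adjusted p = 0.29). HLI-1 and Sham-3 were not its highest libraries, and without both the log2 fold change was -0.85 (edgeR adjusted p = 0.23). With both left out, 3 of the 9 members (Nqo1, Txnrd1 and Srxn1) were lower in HLI at an unadjusted p under 0.05 and none was higher. Of all tested genes, 7.57% were lower and 13.1% were higher. The 2 libraries were picked for being high in most members, Txnrd1 and Srxn1 among them. Leaving them out narrows the spread of such genes, so the count of members is a description and no test. On unscaled log2(TPM + 1), with an all-gene median of 0.19, the limma values of Nqo1, Txnrd1 and Srxn1 were -0.48, -0.18 and -0.16.

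**Figure D3:**
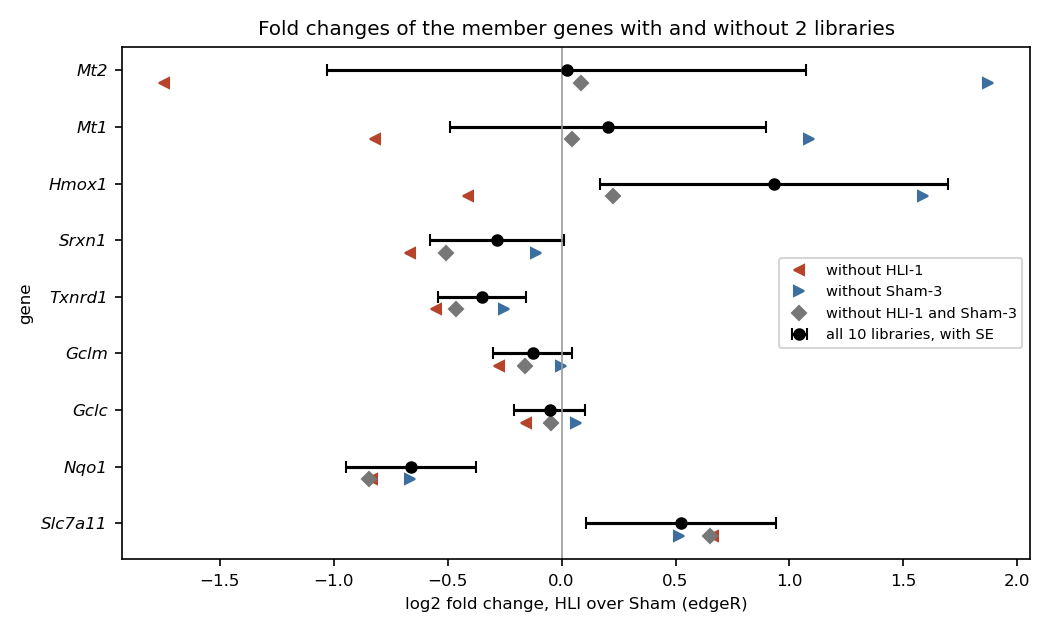
Log2 fold change of HLI over Sham from edgeR for each member, with all 10 libraries (black, bars are SE), without HLI-1 (left-pointing), without Sham-3 (right-pointing) and without both (grey). For Mt2 the value runs between -1.75 and 1.87 with a single library left out, while Nqo1, Txnrd1 and Srxn1 stay below 0 in each of these fits.

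The subunits of glutamate-cysteine ligase differed little between libraries. Gclc (ENSMUSG00000032350), the catalytic subunit of this enzyme, which makes the first step of glutathione synthesis, stood at 22.4, 14.8, 15.8, 18.0 and 16.58 CPM in HLI replicates 1 to 5, against 14.9, 18.3, 24.3, 16.8 and 16.7 CPM in Sham replicates 1 to 5. Gclm (ENSMUSG00000028124), its modifier subunit, stood at 40.3, 24.2, 23.4, 30.6 and 26.0 CPM in HLI replicates 1 to 5, against 27.3, 30.2, 42.5, 29.5 and 27.9 CPM in Sham replicates 1 to 5. HLI-1 and Sham-3 were highest for both subunits, at 1.38 to 1.60 times the median of the other 4 libraries of their group, far less than for the metallothioneins. The log2 fold changes were -0.05 (SE 0.16; edgeR adjusted p = 0.86) for Gclc and -0.13 (SE 0.17; edgeR adjusted p = 0.68) for Gclm. The ratio of Gclc to Gclm in TPM was 0.342 in HLI-1 and 0.422 to 0.469 in HLI replicates 2 to 5, against 0.335 to 0.382 in Sham, so that 4 HLI libraries lay above every Sham library in this ratio. On estimated counts it was 0.557 to 0.677 in HLI and 0.544 to 0.604 in Sham, and 3 HLI libraries lay above every Sham library. Gclm shares 3.92% of its 50-base runs with transcripts of other genes and 4.38% with their opposite strand, mostly with the overlapping gene Gm17494, so a small part of its reads cannot be told apart.

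Slc7a11 (ENSMUSG00000027737), the cystine importer that supplies cysteine for glutathione, was the least abundant member per length in every library, with a median of 0.309 TPM in HLI and 0.184 TPM in Sham. Its estimated counts were 15, 31, 34, 24 and 24 in HLI replicates 1 to 5, against 7, 10, 18, 34 and 16 in Sham replicates 1 to 5. A count of 7 has an exact 95% Poisson interval of 2.81 to 14.4 and a count of 34 one of 23.5 to 47.5, which cover counting error only. HLI-1 was the lowest HLI library here and the highest HLI library for Gclc and Gclm. Its 15 counts have a Poisson interval of 8.40 to 24.7, which overlaps that of every other HLI library, so its place here is uncertain. The log2 fold change was 0.52 (SE 0.42; edgeR adjusted p = 0.47). Its transcripts share 0.618% of their 50-base runs with other genes and 1.37% with their opposite strand, which at these counts adds to the uncertainty.

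Between genes, only levels per length can be compared, and the medians in TPM placed Mt1 (86.8 in HLI, 67.8 in Sham) and Mt2 (84.1 in HLI, 67.1 in Sham) on top. Hmox1 (62.1 in HLI, 32.7 in Sham) and Txnrd1 (45.1 in HLI, 52.2 in Sham) followed, with ranges that overlapped each other and the metallothioneins. Srxn1 (21.6 in HLI, 29.6 in Sham), Gclm (21.1 in HLI, 23.7 in Sham) and Nqo1 (12.7 in HLI, 19.2 in Sham) were close to each other, with overlapping ranges. Gclc (9.43 in HLI, 7.98 in Sham) overlapped Nqo1 in its range, and Slc7a11 overlapped no other member.

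Across the 8 libraries other than HLI-1 and Sham-3, a choice made after seeing the data, pairs of members were compared by how they varied in log2 CPM. Whether the members form separate sets was not tested. Mt1 with Mt2 had a Pearson r of 0.91 and a Spearman rho of 0.88 (two-sided exact permutation p = 0.0024 for r, 0.029 adjusted over 36 pairs, and 0.064 adjusted for rho). Hmox1 varied with both of them, at r = 0.92 with Mt1 (rho 0.86; exact permutation p = 0.0020, adjusted 0.029) and r = 0.91 with Mt2 (rho 0.88; exact permutation p = 0.0059, adjusted 0.042). A single pair outside the metallothioneins and Hmox1 was as close, Nqo1 with Txnrd1, at r = 0.91 (rho 0.86; exact permutation p = 0.0018, adjusted 0.029), and Nqo1 with Gclm followed at r = 0.86 (rho 0.79; exact permutation p = 0.0047, adjusted 0.042). Each r pools HLI and Sham, and Nqo1 and Txnrd1 were both lower in HLI in these 8 libraries, so a shared group difference enters their r. With all libraries of a group, Nqo1 with Txnrd1 had r = 0.79 within HLI (exact permutation p = 0.13, adjusted 0.22) and 0.57 within Sham (exact permutation p = 0.31, adjusted 0.53).

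No adjusted p of a rho was under 0.05 in these 8 libraries. Between Mt1, Mt2 and Hmox1 on one side and Nqo1, Txnrd1 and Gclm on the other, r lay between -0.58 and -0.27 in the 9 pairs, with adjusted exact permutation p from 0.35 to 0.61. Srxn1 had an r of -0.01 with Hmox1 and 0.0029 with Mt1 there. With Txnrd1 its r was 0.84 (rho 0.86, exact permutation p = 0.0093, adjusted 0.056). HLI-3 and HLI-5 were the libraries farthest from the median of Nqo1. Over all 10 libraries the r of Nqo1 was 0.81 with Txnrd1 and 0.64 with Gclm. Without HLI-3 and HLI-5, and with HLI-1 and Sham-3 kept, it was 0.68 with Txnrd1 (exact permutation p = 0.063, adjusted 0.25) and 0.46 with Gclm (exact permutation p = 0.25, adjusted 0.49). On log2(TPM + 1) over all 10 libraries, Nqo1 had r = 0.63 with Txnrd1 (permutation p = 0.056, adjusted 0.084). With Gclm it had 0.44 there (permutation p = 0.21, adjusted 0.27). An r of the metallothioneins or Hmox1 over all 10 libraries rests largely on HLI-1 and Sham-3, which lie apart from the other 8, and is not used here to describe how the members vary together.

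The genes most like each member were taken by Pearson r of log2 CPM over the 10 libraries, with no test, and every such r shares the 10 libraries and their depth. For the metallothioneins and Hmox1 it therefore ranks genes mainly by the 2 high libraries. Sbno2 was nearest to both Mt1 and Mt2 (r = 0.98 and 0.99), at 64.4, 19.3, 23.3, 16.3 and 22.2 CPM in HLI replicates 1 to 5, against 20.4, 20.2, 58.0, 14.7 and 15.0 CPM in Sham replicates 1 to 5. Timp1, a secreted inhibitor of metalloproteinases, was nearest to Hmox1 (r = 0.97) and second for Mt1 and Mt2 (r = 0.98 and 0.97), at 66.7 CPM in HLI-1 and 7.49 to 15.8 CPM in the remaining HLI libraries, against 40.1 CPM in Sham-3 and 6.76 to 13.3 CPM in the other Sham libraries. The third places went to the chemokine receptor gene Ccr1 for Mt1, to Hspa5, the chaperone BiP, for Mt2, and to Nxpe5 for Hmox1, behind Alox5ap.

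The other members had other neighbours. Nqo1 was nearest to Ddx56, Aars and Adrm1 (r = 0.99, 0.98 and 0.98). Aars, the cytosolic alanyl-tRNA synthetase, stood at 120, 85.8, 63.3, 100.2 and 80.3 CPM in HLI replicates 1 to 5, against 96.4, 143, 125, 125 and 126 CPM in Sham replicates 1 to 5, with HLI-3 lowest and Sham-2 highest as for Nqo1. Gclc was nearest to Gm49336, Rrad and Myod1 (r = 0.94, 0.94 and 0.93), and Gclm to Psmd14, Eef1e1 and Gm49336 (r = 0.97, 0.96 and 0.96). Txnrd1 was nearest to Stt3b, Anxa7 and Nifk (r = 0.96, 0.95 and 0.94), and Srxn1 to Prpf3, Stt3b and Eef1e1 (r = 0.98, 0.94 and 0.94). Slc7a11, from few counts, was nearest to Lsm8, Map2 and Slc31a2 (r = 0.94, 0.92 and 0.92).

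Markers of other cells were set beside these patterns. In bulk muscle, fewer cells of a type and less RNA per cell cannot be told apart. HLI-1 and Sham-3 were the 2 highest libraries for 5 of the 6 tested neutrophil markers, all but Retnlg. They were so too for 4 of 11 tested genes of the glutathione list and 3 of 16 of the thioredoxin list. Among the other NRF2 targets it was 3 of 26, in metal handling 2 of 10. It was 1 of 12 for the regulators and 1 of 12 for haem and iron handling. Some of these lists share genes. The share over all tested genes was 3.86%. The 7 listed neutrophil markers summed to 97.2 CPM in HLI-1 and 5.56 to 22.2 CPM in the remaining HLI libraries, against 92.7 CPM in Sham-3 and 9.54 to 24.0 CPM in the other Sham libraries. Their part in the high Mt1, Mt2 and Hmox1 values was not tested. Csf3r, the receptor for granulocyte colony-stimulating factor, was 26.3 CPM in HLI-1 and 26.1 CPM in Sham-3, with the other libraries at 10.8 CPM or less in HLI and 5.09 CPM or less in Sham, and Ly6g, a defining marker, was at 0 in all libraries but Sham-3.

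No other list of cell markers had HLI-1 and Sham-3 on top for any tested gene. The 10 macrophage markers summed to 3445, 1525, 3130, 849 and 1995 CPM in HLI replicates 1 to 5, against 1647, 803, 1380, 983 and 659 CPM in Sham replicates 1 to 5, so HLI-3 was nearly as high as HLI-1 and Sham-3 was below Sham-1. Erythroid markers, globins for the most part, summed to 3081, 575, 1503, 592 and 1194 CPM in HLI replicates 1 to 5, against 653, 526, 1194, 541 and 618 CPM in Sham replicates 1 to 5. They were highest in HLI-1 and, within Sham, in Sham-3, and their part in the Hmox1 values was not tested. Between the groups, 4 of the 8 fast fibre markers were lower in HLI at an edgeR unadjusted p under 0.05 and none was higher. Of all tested genes, 6.15% were lower and 10.7% were higher. The fast fibre markers had a median log2 fold change of -0.50, and the 6 slow fibre markers had a median of -0.58. Of the 10 macrophage markers, 7 were higher at that threshold and none was lower, against 10.7% and 6.15% of all tested genes. The macrophage median was 0.91, and no marker passed after adjustment. The part of these markers in the lower fitted values of Nqo1, Txnrd1, Srxn1, the regulators and the other NRF2 targets was not tested. Within HLI, the fast fibre markers summed to 48301 CPM in HLI-3 and 85187 to 126200 CPM in the other HLI libraries, and the regenerating fibre markers summed to 1374 CPM in HLI-3 and 37.7 to 303 CPM in the other HLI libraries. In CPM, HLI-3 was the lowest of the 10 libraries for Nqo1, Gclm, Txnrd1 and Srxn1. In TPM it was the lowest for Nqo1 only. The lowest in TPM was HLI-2 for Gclm (17.4) and Txnrd1 (40.3) and HLI-4 for Srxn1 (18.2), so the rank of HLI-3 depends on the scaling. The part of the fibre content of HLI-3 in these values was not tested.

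**Figure D4:**
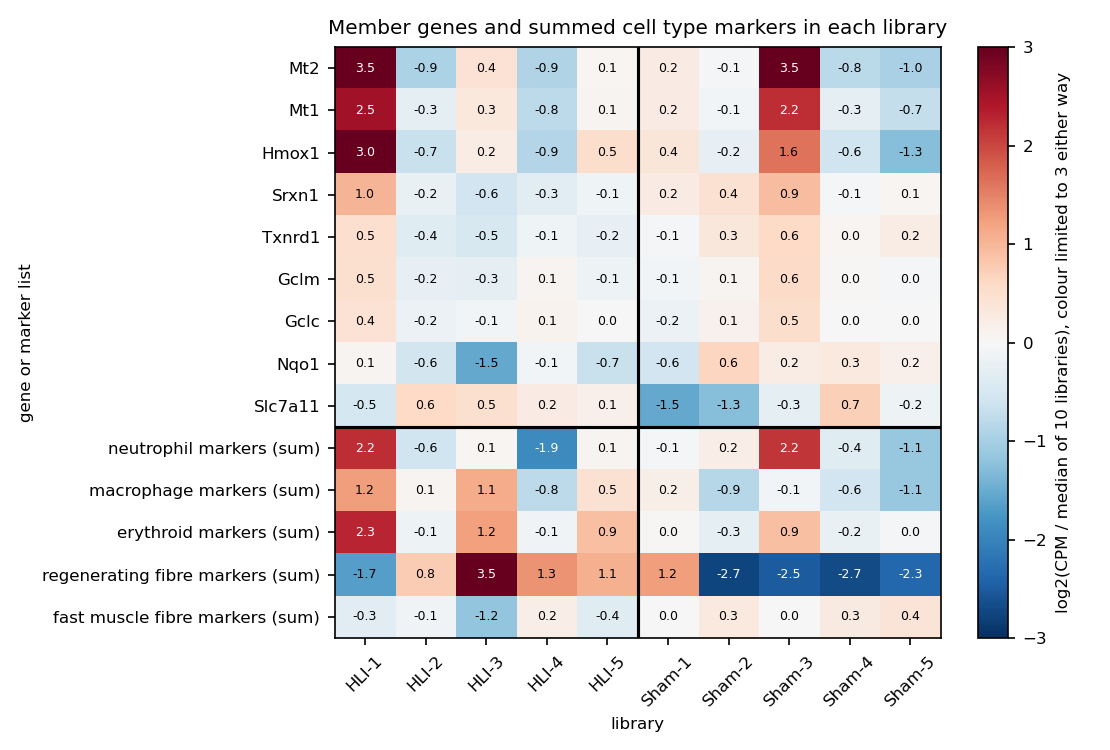
Log2 of the CPM of each member, or of the summed CPM of a marker list, over its median of the 10 libraries, with HLI libraries left of the line and Sham libraries right of it. HLI-1 and Sham-3 are both at 3.5 for Mt2, and the neutrophil markers, 97.2 CPM in HLI-1 and 92.7 CPM in Sham-3, are high in the same columns.

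The regulators of the pathway were next. Nfe2l2 transcript stood at 73.7, 59.8, 73.1, 58.8 and 69.7 CPM in HLI replicates 1 to 5, against 62.1, 55.5, 66.4, 54.8 and 54.0 CPM in Sham replicates 1 to 5 (log2 fold change 0.19, SE 0.11, edgeR adjusted p = 0.33). HLI-1 and Sham-3 were only slightly above their groups in it. Of the 12 tested regulators, none was higher and 3 were lower in HLI at an unadjusted p under 0.05, Mafg, Sqstm1 and Keap1, where 10.7% of all tested genes were higher and 6.15% were lower, and none of these passed after adjustment. Over the 12, 8 had a fold change below 0 (46.2% of all tested genes), with a median log2 value of -0.26 beside 0.03 over all tested genes.

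Sqstm1, encoding p62, which draws KEAP1 into autophagy, stood at 594, 401, 259, 518 and 354 CPM in HLI replicates 1 to 5, against 471, 774, 584, 616 and 711 CPM in Sham replicates 1 to 5 (log2 fold change -0.57, SE 0.22, edgeR adjusted p = 0.29). Keap1 stood at 51.3, 52.4, 36.5, 60.2 and 44.6 CPM in HLI replicates 1 to 5, against 52.0, 67.2, 55.6, 62.9 and 73.2 CPM in Sham replicates 1 to 5 (-0.34, SE 0.14, edgeR adjusted p = 0.29). Mafg, the small MAF partner, averaged 42.4 ± 6.76 CPM in HLI and 56.0 ± 8.06 CPM in Sham (SD, n = 5 each; -0.40, SE 0.14, edgeR adjusted p = 0.29). For Sqstm1 and Keap1, HLI-3 was the lowest library, as for Nqo1.

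Of 30 other NRF2 target genes, 26 were tested and none passed after adjustment. At an unadjusted p under 0.05, 6 were lower in HLI and 1 was higher, where 6.15% of all tested genes were lower and 10.7% were higher. A fold change below 0 was found for 19 of the 26, against 46.2% of all tested genes, with a median log2 value of -0.16 beside 0.03 over all. Osgin1, a growth inhibitor induced by oxidative stress, stood at 18.1, 9.23, 5.98, 9.19 and 8.32 CPM in HLI replicates 1 to 5, against 13.9, 25.5, 21.2, 14.8 and 17.4 CPM in Sham replicates 1 to 5 (log2 fold change -0.87, SE 0.28, edgeR unadjusted p = 0.0083, adjusted p = 0.29). In CPM, HLI replicates 2 to 5 were below every Sham library, the layout that Srxn1 and Txnrd1 had in CPM. Gstm1, a glutathione transferase, averaged 109 ± 29.2 CPM in HLI and 169 ± 29.8 CPM in Sham (SD, n = 5 each; -0.64, SE 0.21, edgeR adjusted p = 0.29). The 1 higher gene, named after its values were seen, was Ugt1a6a, a glucuronosyltransferase (0.67, SE 0.30, edgeR adjusted p = 0.29).

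Of the 11 tested genes of glutathione synthesis, recycling and peroxidases, 1 was lower at an unadjusted p under 0.05, where 6.15% of all tested genes were lower. It was Chac1, which degrades glutathione, at 5.62, 6.23, 7.01, 12.9 and 6.36 CPM in HLI replicates 1 to 5, against 2.87, 11.8, 40.1, 26.0 and 15.0 CPM in Sham replicates 1 to 5 (log2 fold change -1.33, SE 0.52, edgeR adjusted p = 0.29). Gpx7, a peroxidase of the endoplasmic reticulum, averaged 14.9 ± 3.80 CPM in HLI and 11.9 ± 1.09 CPM in Sham (SD, n = 5 each; 0.33, SE 0.17, edgeR adjusted p = 0.32). Gsr, glutathione reductase, named after its values were seen, had HLI-1 and Sham-3 on top, at 44.9 and 46.6 CPM, with the other 8 libraries between 24.6 and 34.0 CPM. Of 16 tested genes of the thioredoxin, peroxiredoxin and superoxide dismutase list, 1 was higher at an unadjusted p under 0.05, the endoplasmic reticulum peroxiredoxin Prdx4 (0.52, SE 0.23, edgeR adjusted p = 0.29), and 1 was lower, the cytosolic superoxide dismutase Sod1 (-0.35, SE 0.14, edgeR adjusted p = 0.29). The shares over all tested genes were 10.7% higher and 6.15% lower.

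**Figure D5:**
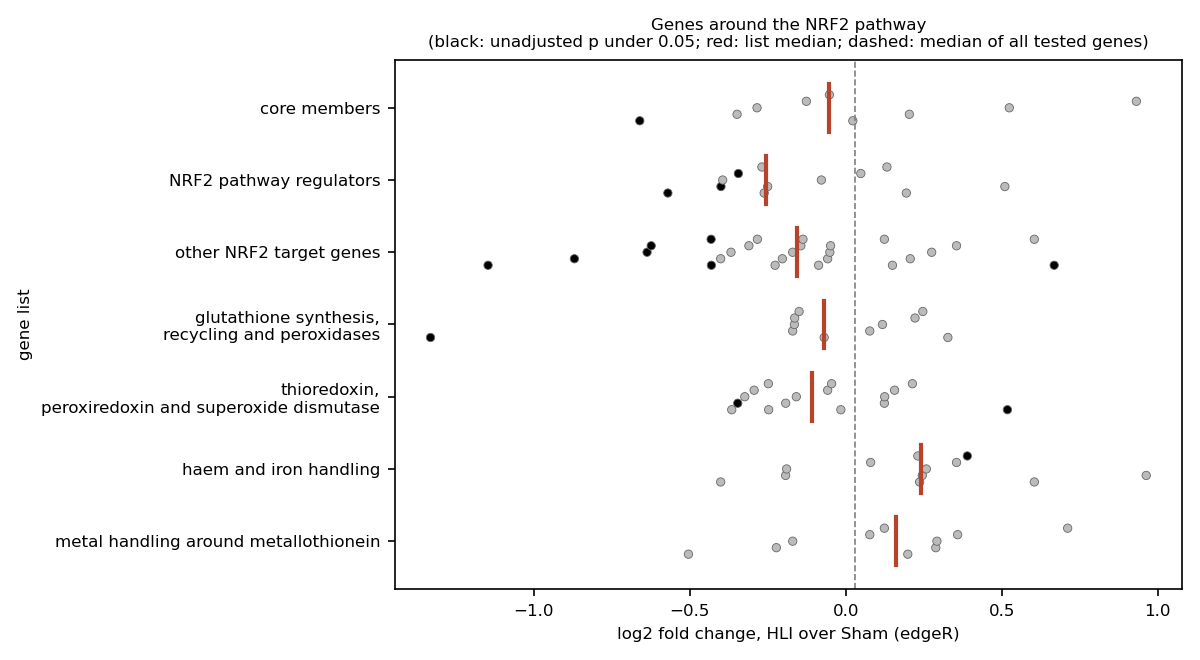
Log2 fold change of HLI over Sham from edgeR for the tested genes of each list, 1 point per gene, with red bars at list medians and a dashed line at the median of all tested genes, 0.03. Black points have an unadjusted p under 0.05; no gene passed after adjustment, and among the pathway lists shown, with the 9 members taken as 1 list, the medians run from -0.26 for the regulators to 0.24 for haem and iron handling.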

How the data were processed

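The authors deposited 1 table of 21956 genes with, per the file headers, a count and a TPM value (transcripts per 1000000, relative to gene length) for each library. The deposited counts are estimated counts, of which 93.4% are whole, and are not normalized. HISAT2 2.0, Bowtie 0.12.2 and the build mm8 are named per the submitters' processing notes, with no roles. For the counting tool, the annotation and strand, no source used here gives any detail. The labels' protocols speak of muscle, cells and adipose material in different places, and the tissue label of the samples was followed. The reference annotation (GRCm38) is of another build than mm8, and was used for names, RefSeq promoters and GENCODE M21 transcripts, where runs of 50 bases shared with other genes were counted on both strands.

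The 9 members and the gene lists were chosen with earlier results of these data known. Estimated counts were rounded and tested in edgeR 4.0.16 (R 4.3.3) with the quasi-likelihood test, TMM scaling and filterByExpr (count minimum 10, total minimum 15), as HLI against Sham without covariates. A call needed an adjusted p (Benjamini-Hochberg, 13404 genes) under 0.05. The test was checked on simulated counts. CPM uses TMM-scaled library sizes, and log2 CPM a prior count of 2. Correlations are Pearson r and Spearman rho with 100000 permutations, exact below 10 libraries, adjusted over 36 pairs.

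The text names the 9 members, the 2 genes with the smallest unadjusted p in each list at a mean of at least 1 CPM, Nfe2l2, Keap1, Bach1, Hmox2, Mt3 and Mtf1, and the 3 genes most like each member; other genes are said to be named after their values were seen, and Ftl1 was set beside Fth1 in the same way. For the marker lists only sums and counts are given, apart from a few genes. Alternatives were a replicate block, each library left out, no filter, DESeq2 size factors, DESeq2 1.42.0, and limma 3.58.1 on log2(TPM + 1), on log2(TPM + 0.1) and after scaling by median of ratios. The fit without HLI-1 and Sham-3 together was chosen after seeing the data.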

Additional observations from a re-analysis of the deposited data

Results flagged for a closer look

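In groups of 5, a library was marked when its gap to the nearest other library was above 0.71 of the group's range in CPM, Dixon's 95% value. For normally distributed values chance marks about 1 in 20 groups, and whether CPM follow that distribution was not checked. Here 8 of the 18 groups of member and treatment were marked. Each mark fell on HLI-1 or Sham-3, so the marks are not independent of each other. Both libraries were marked for Mt2, at 237.45 CPM in HLI-1 and 237.16 CPM in Sham-3, and for Mt1, at 134.62 CPM in HLI-1 and 108.88 CPM in Sham-3. HLI-1 alone was marked for Hmox1 (294.65 CPM), Srxn1 (78.361 CPM) and Txnrd1 (116.88 CPM). The mark of Txnrd1 was narrow, with a gap of 0.713 of the range. Sham-3 alone was marked for Gclm, at 42.545 CPM. Neutrophil markers were highest in the same 2 libraries, and their part in these values was not tested.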

How the results depend on the processing

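Of 162 refitted fold changes of the members, 151 kept their direction and 11 turned it, and none reached an adjusted p under 0.05. Leaving out 1 library each gave -0.41 to 1.59 for Hmox1, -0.82 to 1.09 for Mt1, -1.75 to 1.87 for Mt2 and -0.16 to 0.064 for Gclc, and turned the sign of each of these 4. The signs of the other 5 members held in each alternative, with ranges over single libraries left out of -0.83 to -0.48 for Nqo1, -0.55 to -0.25 for Txnrd1, -0.67 to -0.11 for Srxn1, -0.28 to -0.0026 for Gclm and 0.33 to 0.92 for Slc7a11. Gclc was 0.14 on log2(TPM + 1) and 0.15 on log2(TPM + 0.1), with all-gene medians of 0.19 and 0.21; relative to these Gclc was -0.05 and -0.06. DESeq2 called 42 genes, with an unadjusted p under 0.05 for 1513 higher and 1124 lower genes; the cause was not tested. Every edgeR and limma alternative called 0. Over all 10 libraries Mt1 and Mt2 had r = 0.99, and 16 of the other 35 pairs had an adjusted p under 0.05; 1 did without the 2 libraries farthest from the first gene's median, 4 without HLI-1 and Sham-3, 0 within HLI and 0 within Sham, where 5 libraries remain, and 21 on log2(TPM + 1). Mt1 with Mt2 gave 0.988 within HLI (exact permutation p = 0.017, adjusted 0.15) and 0.994 within Sham (exact permutation p = 0.0083, adjusted 0.075). Libraries with the same replicate number had deviations correlated between -0.0090 and 0.28, and no HLI library correlated best with its own number, so the numbers were not taken as pairs; with the replicate number as a block, 0 genes were called, Hmox1 was at 0.44 and Mt1 at 0.08. Depth limits Slc7a11, at 7 to 34 counts per library.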

Other observations

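Metallothioneins also answer to glucocorticoids, and 9 genes known to do so were all tested. At an unadjusted p under 0.05, 2 were higher and 2 were lower in HLI, where 10.7% of all tested genes were higher and 6.15% were lower. None passed after adjustment in edgeR. Of the 9, 7 had a fold change below 0 (46.2% of all tested genes), with a median log2 value of -0.15. The 2 higher genes, named after their values were seen, were Cdkn1a (0.71, SE 0.26, edgeR adjusted p = 0.29) and Per1 (0.60, SE 0.27, edgeR adjusted p = 0.29). Zbtb16 averaged 31.3 ± 9.57 CPM in HLI and 46.5 ± 5.81 CPM in Sham (SD, n = 5 each; log2 fold change -0.57, SE 0.19, edgeR adjusted p = 0.29), and Fam107a 2.78 ± 0.81 CPM in HLI and 4.64 ± 1.54 CPM in Sham (SD, n = 5 each; -0.74, SE 0.27, edgeR adjusted p = 0.29). HLI-1 and Sham-3 were the 2 highest libraries for 1 of the 9, Tsc22d3, which encodes the leucine zipper protein GILZ. The share over all tested genes was 3.86%.

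Rrad, a small GTPase of muscle and one of the genes most like Gclc, stood at 76.5 CPM in HLI-1 and 8.70 to 17.4 CPM in the other HLI libraries, against 74.7 CPM in Sham-3 and 8.12 to 16.61 CPM in the other Sham libraries. Myod1, the myogenic factor, was 37.2 CPM in HLI-1 and 17.9 to 31.2 CPM in the other HLI libraries, against 41.8 CPM in Sham-3 and 20.4 to 26.0 CPM in the other Sham libraries.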
